A study of Rattus norvegicus with 3 samples.

Results

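Btg2, Ier2, Ier3, Ier5, Ccn1, Dusp1, Dusp6, Klf4 and Nfil3 are early-response genes, and their RNA was followed here in the rat vestibular nuclei after loss of the labyrinth, the balance organ of the inner ear. The 9 genes were named from an earlier reading of these arrays, in which several of them were low 1 day after surgery, so their differences from sham are a description and not a test. Probes were matched by the RefSeq accession that the scanner files give, which found 9 probes for 8 of the 9 genes among 41012 probes and 8899 named genes in all. Ier5 had no probe with its accession and is named only. Ccn1 had 2 probes and each other gene 1, and every one of these 9 probes lay on a single spot.

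The study followed vestibular compensation, the recovery of balance after one-sided loss of labyrinth input. The animals were male adult rats of the Sprague-Dawley strain, 200 to 250 g in weight. The sham group is labelled as a sham operation, although the protocol calls these animals normal, and no label says which side of their nuclei was taken. The day 1 and day 7 groups had the left labyrinth removed, and the nuclei of the same side were taken 1 day and 7 days later. Each group was 1 Cy3 array that stood for 3 rats. A nucleus was too small to fill an array, and the protocol reads as though the rats of a group were pooled.

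With 1 array per group there is no replicate error, no test and no p-value. Levels are given as the scanner's processed intensity, on a linear scale, with the error that the scanner software attached to the spot. That error covers the spot and not the animals, the dissection or the labelling. Differences are log2 values after each array was set to its own 75th percentile of intensity, which was 5692 (sham), 5242 (day 1) and 5676 (day 7). A probe counted as measured in a comparison when, on each of the arrays compared, its signal was well above background without being saturated. All 11 neuron, 8 astrocyte and 8 oligodendrocyte markers that had a probe were well above background on all 3 arrays. The arrays shared 1 slide, each at a position of its own, so position and group cannot be told apart.

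Immediate-early genes are transcribed within minutes of a stimulus from factors that are already in the cell, without new protein synthesis. In neurons calcium entry and growth factors reach them through the MAP kinase cascade, the kinases that it activates, and the factors CREB and SRF bound at their promoters. The products are of several kinds. Btg2 slows cell division and promotes removal of mRNA tails, Ier2, Ier3 and Ier5 are short-lived proteins of gene control and cell survival, Ccn1 is a secreted matrix protein that binds integrins, Dusp1 and Dusp6 are phosphatases that switch MAP kinases off, and Klf4 and Nfil3 are transcription factors.

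The promoters of the set are described here by their sequence matches to known sites, that of CREB among them. Any link between these matches and the levels after surgery was not tested. RefSeq start sites of the GRCr8 assembly were available for 8 of the 9 genes, Ier3 being the exception, with 250 bases before and 50 bases after the start. Their content of G and C ran from 45.0% to 69.7%, with 6 of the 8 above the median of 51.7% over all promoters. The full cAMP response element, TGACGTCA, was present in the promoters of Btg2, Dusp1 and Ier2. It was present in 1.83% of the 33469 promoters of the same length. The core TGACG, searched on both strands and contained in the full element, was present in 5 of the 8, those of Btg2, Dusp1, Ier2, Ccn1 and Nfil3, against 21.2% of all promoters. Promoters of Dusp6, Klf4 and Ier5 held neither. An EGR site, GCGNGGGCG, was present in the Btg2 promoter and in 4.98% of all. None of the 8 held the AP-1 site TGANTCA (7.33% of all), the CArG box bound by SRF (1.64% of all) or the Nfil3 site TTANGTAA (2.24% of all), which says only that these letters were not in these windows. A match is a description of sequence, and no binding was measured here. The windows below run 5′ to 3′ along the gene's strand, with matches in capitals.
Btg2, GRCr8 chr13:48087835-48087940, minus strand: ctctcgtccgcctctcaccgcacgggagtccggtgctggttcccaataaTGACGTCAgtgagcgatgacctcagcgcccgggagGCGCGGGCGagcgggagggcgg
Ier2, GRCr8 chr19:40399258-40399363, plus strand: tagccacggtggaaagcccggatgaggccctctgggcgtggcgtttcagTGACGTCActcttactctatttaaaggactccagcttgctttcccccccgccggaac
Dusp1, GRCr8 chr10:17184680-17184785, plus strand: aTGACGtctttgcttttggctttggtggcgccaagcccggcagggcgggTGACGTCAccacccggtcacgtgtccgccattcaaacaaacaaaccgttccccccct
Ccn1, GRCr8 chr2:237225702-237225807, minus strand: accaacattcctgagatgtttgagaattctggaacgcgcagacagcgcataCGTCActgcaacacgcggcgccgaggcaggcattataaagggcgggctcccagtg
Nfil3, GRCr8 chr17:12432316-12432375, plus strand: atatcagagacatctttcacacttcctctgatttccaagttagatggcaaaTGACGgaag
The full element began 201 bases before the start in Btg2, 124 in Dusp1 and 66 in Ier2. Ccn1 carried the core on the opposite strand from 67 bases before its start, and Nfil3 carried it from 9 bases before.

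At 1 day after labyrinthectomy, 4 of the 7 measured genes were at least 2-fold lower than in sham, none was 2-fold higher, and 3 were neither. Across the 6287 named genes measured in this comparison, 4.36% were lower by 2-fold or more and 8.26% higher. The lower genes made up 34.6% of all named genes past 2-fold, 44.6% with arrays scaled to the median and 46.3% without scaling. The 4 lower genes were Btg2, Ccn1, Ier2 and Klf4. Dusp1 could be given only as a bound, which also lay past 2-fold, and Nfil3 alone was above sham. The median log2 difference of the 7 genes was -1.19, and that of all named genes measured was 0.001. With Dusp1 at its bound the first became -1.32, but the median of all named genes holds no bounds. The share of all genes with a bound past 2-fold is not given here. Because the early genes were picked on this comparison, nothing is read from the gap between the medians.

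At 7 days after labyrinthectomy, 3 of the 7 measured genes were at least 2-fold lower than in sham and none was 2-fold higher, and the bound of Dusp1 again lay past 2-fold. Of 6256 named genes, 5.72% were lower by 2-fold or more and 11.2% higher. The lower genes made up 33.9% of those past 2-fold, 45.7% with arrays scaled to the median and 44.6% under cyclic loess. The 3 lower genes were Btg2, Ier2 and, by its brighter probe alone, Ccn1, while Klf4 was just inside the 2-fold limit. The median of the 7 was -0.91, against 0.05 for all named genes measured. With Dusp1 at its bound it was -1.10, which has no like value here, as the median of all named genes holds no bounds. Both comparisons use the same sham array, so a sham value that is high by error would lower both days together.

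Between the days, none of the 7 measured genes differed by 2-fold in either direction. Among 6139 named genes, 5.33% were lower by 2-fold or more at day 7 than at day 1 and 6.55% higher. The lower genes were 44.9% of those past 2-fold, and 34.1% without scaling. This comparison does not use the sham array. Its values ran from -0.33 (Nfil3) to 0.71 (Ier2), with a median of 0.04, and the median of all named genes was 0.04 too.

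**Figure D1:**
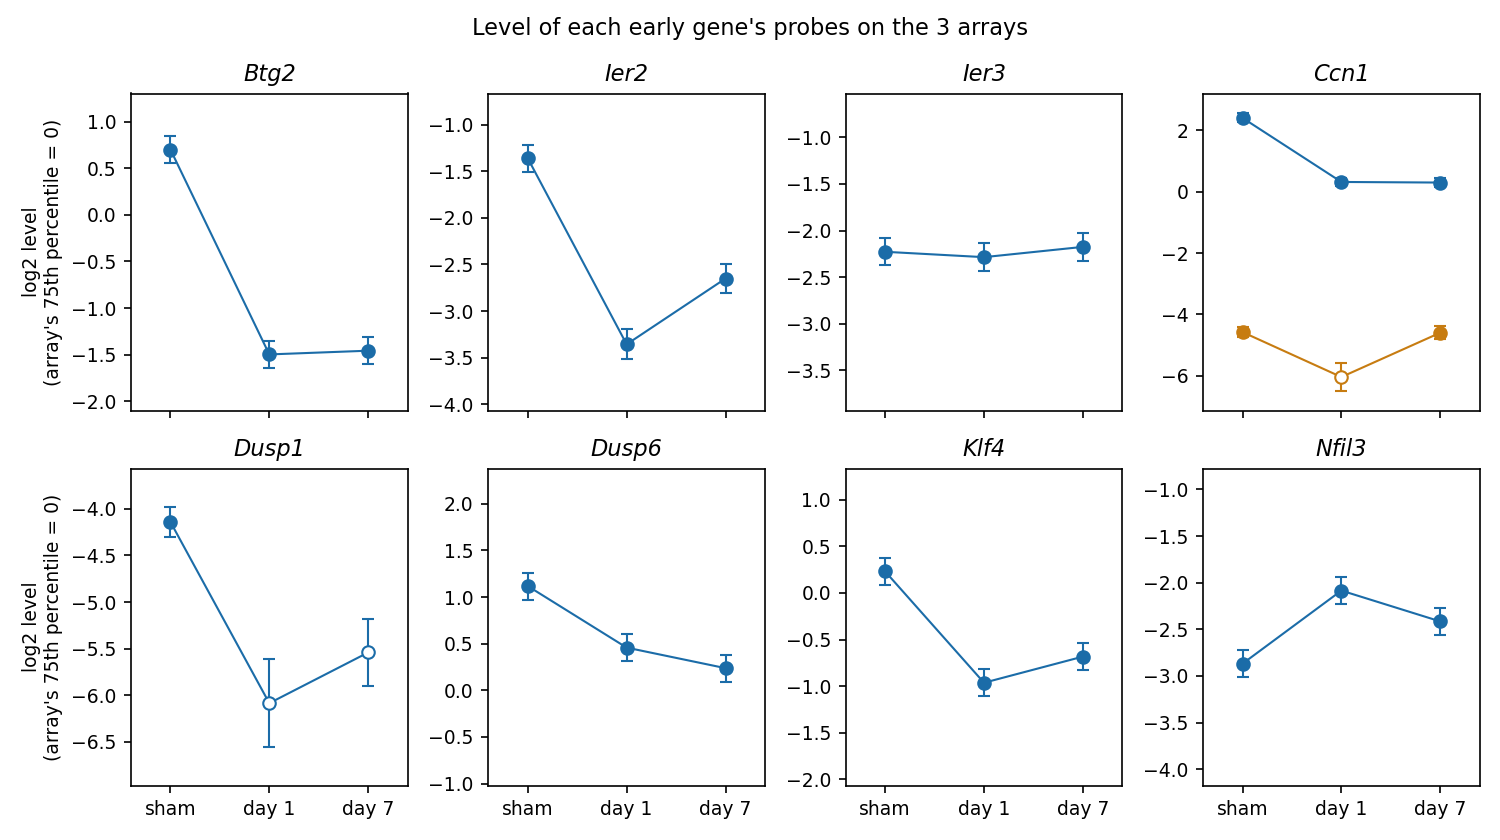
Log2 level of each gene's probes (vertical axis, the array's 75th percentile of intensity set to 0, own range in each panel) on the sham, day 1 and day 7 arrays, 1 array each. Bars are the scanner's error on the spot, blue is the brighter probe, orange the dimmer probe of Ccn1, and open points were not well above background. Btg2 and Ccn1 (blue) were at -2.20 and -2.09 relative to sham at day 1 and at nearly the same level at day 7, Ier3 was level, and Nfil3 was highest at day 1.

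Btg2, the antiproliferative gene, was the lowest of the set at day 1. Its intensity was 9243 in sham (scanner error 924), 1856 at day 1 (error 187) and 2066 at day 7 (error 208). Sham was high, and the arrays of both days lay close together at a much lower level. The log2 difference from sham was -2.20 at day 1, with a scanner error of 0.20, which leaves 21.8% of the sham level. At day 7 it was -2.16, with 22.4% of sham. Of the 6287 named genes, 24 were at or below Btg2 at day 1, and 71 of 6256 at day 7. Day 7 minus day 1 was 0.04 (error 0.21), so the days were not distinguishable on this spot. The raw spot medians, before any background correction, were 10201, 2173 and 2467 for sham, day 1 and day 7 over local backgrounds of 50, 52 and 47, so the gap was present in the uncorrected signal.

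The other BTG and TOB genes, which encode relatives of Btg2 and the deadenylase Cnot8 that this family binds, did not share its difference. Of 5 measured at day 1, none was 2-fold lower or higher, and the median was -0.09, below 0 under all 5 other scalings. At day 7 the 4 measured were again within 2-fold, with a median of -0.11. Cnot8 was at -0.16 on day 1 and -0.75 on day 7. Tob2 was at -0.39 and -0.31, but its other probe gave -0.18 and 1.10. Btg3 was at 0.02 and 0.29, and Btg1 was at -0.09 on day 1 and saturated on the day 7 array. Btg4, an oocyte gene, was not well above background on either array of these comparisons.

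Ier2, which encodes a nuclear early-response protein, was low at day 1 and less so at day 7. Its intensity was 2214 in sham (error 222), 512 at day 1 (error 56.5) and 904 at day 7 (error 94.3). Day 1 was the lowest of the 3 arrays and day 7 lay between it and sham. The log2 difference from sham was -1.99 at day 1 (25.1% of sham) and -1.29 at day 7 (40.9% of sham). Day 7 minus day 1 was 0.71, with a scanner error of 0.22, which made Ier2 the member with the largest difference between the days. Still, 12.5% of all named genes were at least that much higher at day 7 than at day 1.

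Ier3, a survival gene induced by stress and NF-kB, stayed near its sham level. Its intensity was 1215 in sham (error 122), 1075 at day 1 (error 110) and 1256 at day 7 (error 129). The 3 arrays overlapped within these errors. The log2 differences were -0.06 at day 1 and 0.05 at day 7, each smaller than its scanner error of 0.21. The sign at day 7 turned under 4 of the 5 alternatives that could change it. The one relative on the arrays, Ier5l, was well above background in sham, at an intensity of 100, and not on either array after surgery. The lowest signals called well above background were 109 at day 1 and 122 at day 7. An unchanged Ier5l signal would thus not have been called there either, and no loss is read from it. Ier3ip1 had no probe with its accession.

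Ccn1, the secreted integrin ligand formerly called Cyr61, gave unlike answers from its 2 probes. The brighter probe read 30217 in sham (error 3022), 6544 at day 1 (error 655) and 6992 at day 7 (error 700). By this probe sham stood far above both later arrays, which did not differ beyond their errors. The log2 differences were -2.09 at day 1 and -2.11 at day 7, or 23.5% and 23.2% of sham, and day 7 minus day 1 was -0.02 (error 0.20).

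The dimmer Ccn1 probe read 239 in sham (error 27.8), 79.7 at day 1 (error 24.4) and 235 at day 7 (error 35.2). At day 1 it was not well above background, and its bound was 2.02-fold lower than in sham, with scanner errors left out. At day 7 it had returned to the sham level, with a log2 difference of -0.02 (error 0.27). Its bound against day 1 was 1.99-fold higher. The probes thus gave the same direction at day 1 and differed at day 7, where the mean of both was -1.06. The positions of the probes on the transcript were not used here.

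Neither CCN relative that was measured was below sham. Ccn2, a matrix protein formerly called connective tissue growth factor and measured on 10 spots, was at 0.19 on day 1 and 0.37 on day 7. Ccn3 was at least 2-fold higher, at 1.28 and 1.50. Ccn4 was well above background in sham and not on either array after surgery, and Ccn5 was well above background at day 7 alone. Ccn1 and Ccn2 are known targets of the YAP and TEAD pathway, but 8 of the 10 genes listed for that pathway had no probe with their accession. Wwtr1 (0.08 at day 7, with a sign that turned under 3 of 5 other scalings) was the one value measured against sham. Ankrd1, also on that list, was well above background at day 7 alone, at an intensity of 271.

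Dusp1, the nuclear phosphatase that acts on p38, JNK and ERK, was dim throughout. Its intensity was 322 in sham (error 35.6), 77.2 at day 1 (error 25.2) and 122 at day 7 (error 30.1). The sham value was the highest, and neither later value was well above background. The bounds, with scanner errors left out, were 2.73-fold lower at day 1 and 2.64-fold lower at day 7. The day 7 bound was the spot's own difference, -1.40 on the log2 scale with an error of 0.39, so it is no firm minimum. The lowest signals called well above background were 66.9 in sham, 109 at day 1 and 122 at day 7, so the limit was higher on both later arrays.

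Dusp6, the cytoplasmic phosphatase that acts on ERK and is itself induced by ERK signalling, was lower by less than 2-fold. Its intensity was 12355 in sham (error 1236), 7203 at day 1 (error 721) and 6694 at day 7 (error 670). Both later arrays lay below sham beyond the scanner errors and close to each other. The log2 differences were -0.66 at day 1 and -0.88 at day 7, or 63.3% and 54.3% of sham, with errors of 0.20. Of all named genes, 9.59% were at or below Dusp6 at day 1 and 7.13% at day 7, so its place among all genes was less extreme than that of Btg2 or Ccn1.

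Other MAP kinase phosphatases went both ways. Of 4 measured at day 1 none passed 2-fold, with a median of 0.09 that turned negative under 4 of 5 other scalings. At day 7 Dusp2 was higher at 1.39 (0.84 at day 1) and Dusp9 lower at -1.04 (-0.45 at day 1), with a median of 0.20 that turned negative under 1 scaling. Dusp4 was at 0.63 and 0.69, with errors of 0.43, and Dusp5, an ERK phosphatase of the nucleus, at -0.64 and -0.29.

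ERK feedback genes, which like Dusp6 are induced by ERK and restrain it, gave 1 value past 2-fold at each day. Of 5 measured at day 1 the median was -0.28, and of 4 at day 7 it was 0.21, with neither sign turning under other scalings. Spred2, an inhibitor of Ras signalling, was at least 2-fold higher at day 1 (4.02 on the log2 scale) and not well above background at day 7. Spry2, an inhibitor of receptor signalling, was at -0.87 on day 1 and 2.22 on day 7. Errfi1, an inhibitor of the EGF receptor, was at -0.51 and -0.61, and Spred1 at -0.10 and 0.63. All 4 were single probes on single spots.

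The kinases upstream were mostly within 2-fold. Of 10 cascade genes measured at day 1, 2 were at least 2-fold higher, among them Mapk9 (1.03), and 0 lower. The list median was -0.15. The other Mapk9 probes gave -0.05 and 0.13 at day 1. Of 9 measured at day 7 none passed 2-fold. The median there was 0.11, which turned negative under 4 of 5 scalings. Mapk9 was then at 0.72 (-0.01 and -0.15 by its other probes), Mapk10 at -0.95 and Mapk14, which encodes p38 alpha, at 0.41 (-0.24 by its other probe).

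Among factors that act at early gene promoters, 5 of 12 were measured and 1 passed 2-fold. Creb1, the CREB gene itself, was higher at 1.71 on day 1 and 1.39 on day 7, on a dim probe with errors of 0.33 and 0.34. Its coactivators Crtc1 (-0.37 and -0.49) and Crtc2 (0.35 and 0.57) lay on opposite sides of 0, and Crem, which encodes CREB-like activators and repressors, was at -0.06 and -0.40. The list median was -0.06 at day 1 and -0.04 at day 7, and the latter turned positive under 2 of 5 scalings. Srf and its partners Elk1, Elk3, Elk4, Mrtfa and Mrtfb had no probe with their accession.

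Klf4, a zinc finger factor of cell differentiation and vessel quiescence, was lower on both days. Its intensity was 6674 in sham (error 667), 2688 at day 1 (error 270) and 3534 at day 7 (error 354). Sham was the highest array, day 1 the lowest, and the later arrays differed by little more than their errors. The log2 difference was -1.19 at day 1 (43.7% of sham) and -0.91 at day 7 (53.1% of sham), with scanner errors of 0.20. Day 7 minus day 1 was 0.28 (error 0.20). Of the 5 alternatives that could change its values, Klf4 was past the 2-fold limit at day 1 under all and at day 7 under 2.

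No other measured KLF gene was 2-fold lower than in sham. At day 1, 1 of 6 was at least 2-fold higher, Klf11 at 2.32, and at day 7, 1 of 7, Klf2 at 1.86. Klf11 was at 0.50 on day 7, and Klf2, a gene of endothelium under flow, was not well above background at day 1. Klf10, an early target of TGF-beta, was at 0.75 and 0.95, although its other probe gave 0.55 and 0.05, and Klf5 was at -0.05 and 0.58. The medians were 0.14 and 0.50, above 0 under all 5 other scalings.

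Nfil3, a repressor that competes with the PAR bZIP factors Dbp, Tef and Hlf for the same sites, ran opposite to the members that were lower than sham. Its intensity was 780 in sham (error 79.3), 1236 at day 1 (error 126) and 1064 at day 7 (error 110). Sham was the lowest array and day 1 the highest. Day 7 minus day 1 was -0.33 (error 0.21). The log2 difference was 0.78 at day 1 (172% of sham) and 0.45 at day 7 (137% of sham), with errors of 0.21. Both stayed above 0 under all 5 alternatives that could change them. It was within 2-fold, and 12.1% of named genes were at least as high at day 1.

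Among PAR bZIP and clock genes none of 10 measured passed 2-fold at day 1, with a median of -0.15, and 2 of 11 were at least 2-fold higher at day 7, with a median of 0.51. Neither sign turned under other scalings. The 2 were the clock repressors Nr1d2 (1.32) and Per3 (1.31, and 1.77 by its other probe). Nr1d2 was not well above background at day 1, and Per3 was at -0.24. The clock gene Bhlhe41 was within 2-fold by its brighter probe (-0.43 and -0.01), but its other probe gave 1.09 and 1.07. Nr1d1, which represses Nfil3 in the clock, was at 0.01 and 0.87, and Tef at 0.27 and 0.63. No source used here gives the time of day of the dissections.

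**Figure D2:**
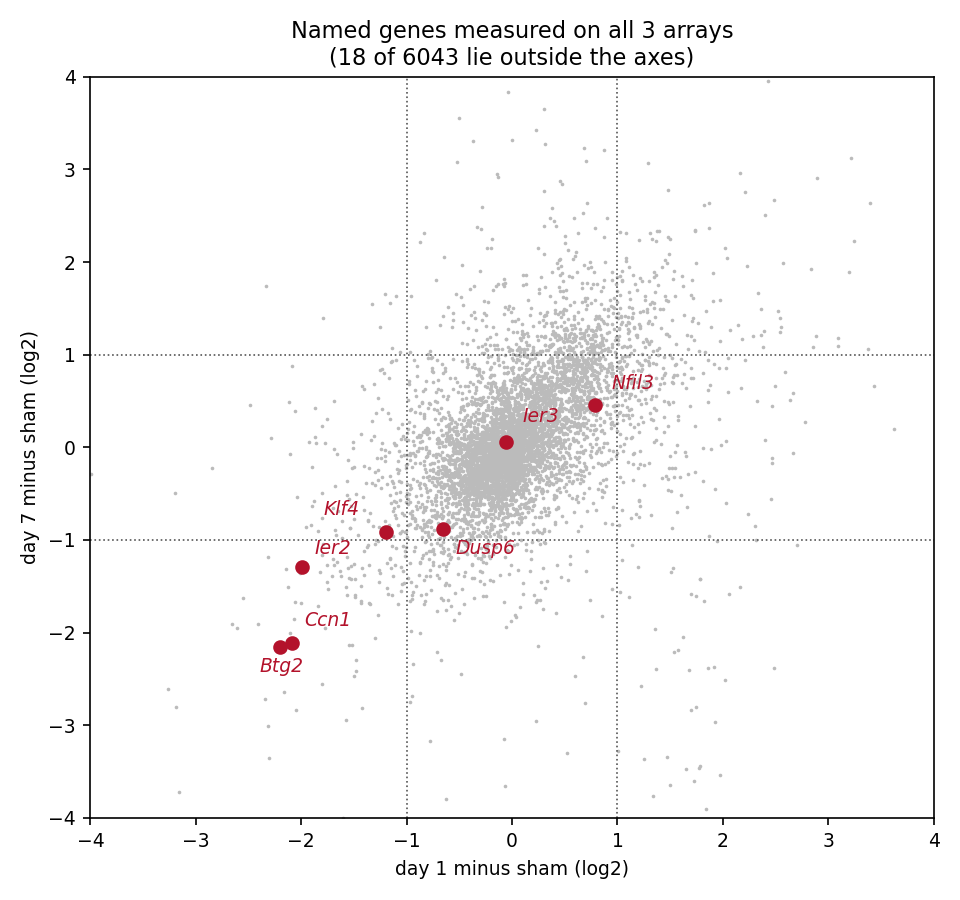
Log2 difference from sham at day 1 (horizontal axis) and at day 7 (vertical axis) for 6043 named genes measured on all 3 arrays (grey, 1 array per group), with 7 early genes in red and the 2-fold limits dotted. Btg2, Ccn1 (by its brighter probe) and Ier2 lie in the lower left, past 2-fold on both days. Klf4 is past the limit on day 1 alone and Dusp6 on neither day. Ier3 and Nfil3 lie among the bulk of genes. Because both axes subtract the same sham array, the slope of the grey cloud is no result.

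Btg2, Ier2 and, by its brighter probe alone, Ccn1 were thus at least 2-fold lower on both days. The same held for 101 of the 6043 named genes measured on all 3 arrays (1.67%). The dimmer Ccn1 probe was at -0.02 at day 7. The gene whose pair of differences lay closest to that of Btg2 was Slc3a2, the heavy chain of amino acid transporters, at -2.14 and -2.09. Likeness was the Euclidean distance between the pairs of log2 differences, over 3 arrays and 3157 genes that were bright in sham, and it was 0.09 for Slc3a2. Ccn1, by its brighter probe, came next at 0.12. Plekho1 (-2.11 and -2.01), the neuronal calcium sensor Ncs1 (-2.41 and -1.90), the ubiquitin ligase gene Nhlrc1 (-2.61 and -1.95) and the glutathione reductase gene Gsr (-1.77 and -1.95) followed among genes outside the set. For Ier2 the distance was 0.89, and 16 other genes lay closer to Btg2 than it did. Klf4 and Dusp6 lay further from Btg2 than Ier2 did, with more genes closer. Ier3 and Nfil3 were not among the genes compared. Choosing genes by their brightness in sham favours genes lower than sham, so this likeness is a description only.

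Further immediate-early genes split more widely. Of 15 measured at day 1, 4 were at least 2-fold lower and 1 higher, with a median of -0.10, and of 17 at day 7, 3 were lower and 2 higher, with a median of 0.02 that turned negative under 1 of 5 scalings. Nr4a1, a nuclear receptor gene, was at least 2-fold lower on both days, at -2.15 and -1.31. Egr1, a zinc finger factor, was at -1.76 on day 1 and 0.31 on day 7. Egr2 was not well above background at day 1 and at 2.86 on day 7, and Nr4a2 was at -0.82 and -1.38.

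**Figure D3:**
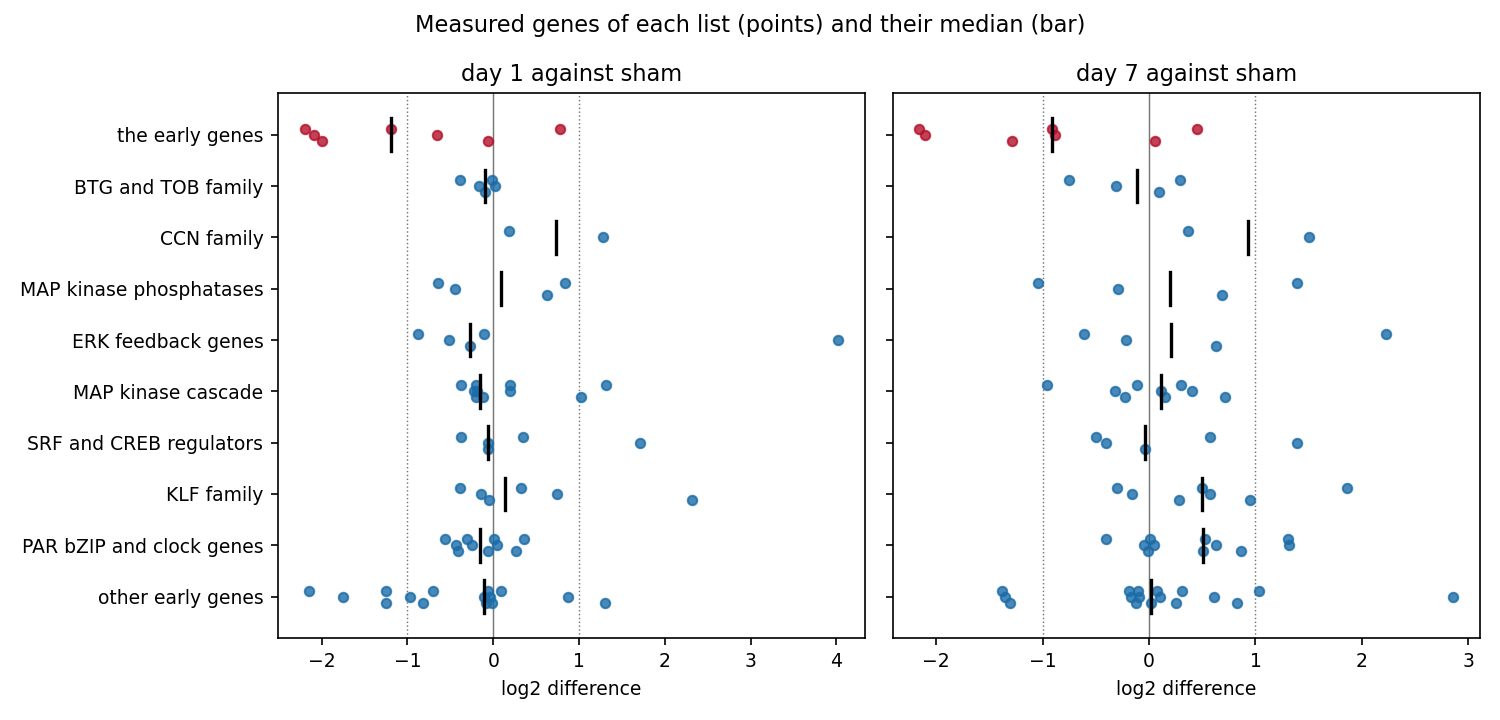
Log2 difference from sham at day 1 (left) and day 7 (right) for the measured genes of 10 lists, the early genes and 9 pathway or family lists named on the axis, 1 point a gene, with the list's median as a black bar and 2-fold as dotted lines. The early genes (red) have medians of -1.19 and -0.91, and the medians of the other lists drawn lie between -0.28 and 0.93.

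Cell type markers are given beside these results as measured. In bulk tissue, fewer cells of a type and less RNA per cell cannot be told apart. The 8 listed microglia markers, of which 7 had a probe, were low at day 1, with a summed scaled level of 48.9% of sham, and stood at 126% at day 7. Of these, Itgam and P2ry12 were not well above background at day 1, Itgam at day 7 and Cx3cr1 in sham. Their part in the day 1 values was not tested. The summed level of neuron markers was 97.2% of sham at day 1 and 81.6% at day 7. Of the 10 measured at day 7, 4 were at least 2-fold lower and 1 higher, with differences from -5.26 to 1.30. That of oligodendrocyte markers was 85.6% and 69.8%, with 1 of 8 lower by 2-fold at each day. Their part in the early gene values was not tested.

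Vessel cells are a known source of Klf4, Dusp1 and Ccn1. Endothelium markers were above sham in sum and below it in median difference. The 6 of 10 endothelium markers with a probe summed to 115% of sham at day 1 and 121% at day 7, and Pecam1 was not well above background at day 7. Median differences of those measured were -0.10 and -0.38. The 5 of 7 pericyte and smooth muscle markers with a probe summed to 102% and 124%, and all 5 were well above background. Choroid plexus and ependyma markers, 5 of 7 with a probe and 1 of these below background on each array, summed to 80.6% and 222%, with 3 of 4 measured at least 2-fold higher at day 7. Markers of meninges (5 of 6 with a probe) summed to 121% and 162%, and the 2 blood markers with a probe to 128% and 116%. Cerebellar granule cell markers summed to 206% and 63.3%, from 4 dim probes of which 1 was below background in sham, 2 at day 1 and 3 at day 7. Astrocyte markers were at 105% and 99.0%. The part of these cell types in the early gene values was not tested.

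Agreement between probes of the same gene limits all single-probe values. Of 1137 named genes with 2 measured probes at day 1, 24 were at least 2-fold lower by the brighter probe, 5 of these were so by the next probe, and 17 were below 0 by it. At day 7 the counts were 40, 7 and 22.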

How the data were processed

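Total RNA of the vestibular nuclei (1 µg, labelled with Cy3, per the labels) was hybridised to 3 Agilent 1-colour arrays, 1 per group. The deposited files hold a processed intensity per spot on a linear scale, made with Feature Extraction 10.7.3.1 after background subtraction and with no scaling between arrays, per the file headers. Other deposited columns are flags per spot for background, saturation and outliers. The authors' series table repeats the processed intensity, and all single-spot probes in it equalled it within 0.1%.

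Here outlier spots (163, 224 and 193 in sham, day 1 and day 7) were left out, log2 intensities were averaged over spots and the 75th percentile of each array was subtracted. A probe was well above background when all its spots were. Such spots made up 81.3%, 77.3% and 76.9%. Where a gene had several probes, the brightest on average stood for it. Names came from RefSeq accessions in a GRCr8 table, which matched 10768 probes. The members and lists were chosen with earlier results of these data known. Of each list, up to 4 genes with the largest difference from sham were named. Values of some genes that this rule names are not reported here. The likeness rule named 5 genes. A bound compares the array where the probe was well above background with the array where it was dim. The dim array stood at the probe's own value or at its lowest signal well above background, whichever was higher. Bounds leave out the scanner errors. The calculation was tested on simulated data, and used Python 3.11.15, pandas 2.3.3 and limma 3.58.1. The alternatives were other scalings, background correction, spot averaging, probe choice and filters.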

Additional observations from a re-analysis of the deposited data

Results flagged for a closer look

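Spry2, an inhibitor of receptor signalling, was at -0.87 on day 1 and 2.22 on day 7. The values lay on opposite sides of sham, each by more than 2 scanner errors. Each value comes from 1 spot on 1 array, and the difference between the days was not tested against animals. No group had enough arrays for a check of single arrays that stand apart.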

How the results depend on the processing

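Of 204 single-gene values under 10 alternatives, 202 moved by less than the scanner error and none past 2-fold changed sign. Many of these values could not move, so the count is no measure of stability. A measured probe on 1 spot keeps its value under other outlier handling, spot averaging and filters. Averaging over probes could move Ccn1 alone. Only the 5 alternatives of scaling or background correction could move every measured value. Under these, Klf4 at day 7 passed 2-fold in 2 of 5 and Dusp6 in 1 of 5. At day 1 the median of the early genes was -1.57 without a filter on dim probes, which adds Dusp1, and -1.99 among brighter probes, which drops Ier3 and Nfil3. At day 7 it was -1.29 among brighter probes, and 5 genes instead of 3 were 2-fold lower with arrays scaled to the median. The filter for brighter probes keeps a gene that is bright on either array compared. Btg2 and Ier2 passed it through sham alone, so it favours genes lower than sham and its medians are no check. Ccn1 at day 7 was at -1.06 as the mean of its 2 probes and Dusp6 at -0.67 under normexp. Without scaling, the median of all named genes was -0.12 at day 1 and 0.15 for day 7 against day 1. Normexp on mean spot signals was not run. Normexp on median signals took its place, chosen after the data were seen. Dim signals limit Dusp1 and the dimmer Ccn1 probe. No paired analysis was possible because each group has 1 array.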
